A study of Mus musculus with 15 samples.

Results

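The genes described here encode the nuclear subunits of the 5 oxidative phosphorylation complexes in mouse kidney. The set was chosen with earlier results of these data known, and its members were then taken by gene symbol. They are the protein-coding genes of GENCODE release 21 for mouse named Nduf (complex I, with the assembly factors named Ndufaf left out), Sdha to Sdhd (complex II), Uqcr or Cyc1 (complex III), Cox4 to Cox8 (complex IV) and Atp5 (complex V). The annotation holds 86 such genes, and 81 of them, from 285 transcripts, had a value in all 15 mice, out of 13933 annotated genes with a value. Of these transcripts 154 are annotated as protein-coding, 83 as retained introns, 34 as processed transcripts and 14 as nonsense-mediated decay. The gene values sum all of them. The other 5 (Ndufa13, Cox4i2, Cox6a2, Cox7b2 and Cox8c) were not listed in the files analysed here. The 81 divide into 37 genes of complex I, 4 of complex II, 9 of complex III, 14 of complex IV and 17 of complex V, and all 81 passed the filter on low values, as did 12366 genes in all.

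The kidneys came from wild-type male C57BL/6 mice, 8 weeks old when purchased, in 3 groups of 5. All mice carried a subcutaneous osmotic pump for 28 days. Control mice received saline and water by gavage, Ang II mice received angiotensin II at 500 ng/kg/min and water, and Ang II + QDG mice received the same infusion and Qingda granule (QDG), a Chinese herbal formula, at 1.145 g/kg/day. The values were FPKM, fragments scaled to transcript length and to all mapped fragments of a mouse, summed over the transcripts of a gene, from total RNA of renal tissue. In bulk tissue fewer cells of a type and less RNA per cell cannot be told apart. Renin mRNA (Ren1), which Ang II infusion is known to lower, was 33.2 ± 3.79 FPKM (SD, n = 5) in Control and 30.1 ± 8.97 FPKM in Ang II (log2 fold change −0.18, adjusted p = 0.718 from limma), so this check of the group labels gave no separation.

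Oxidative phosphorylation is the last stage of respiration, in the inner membrane of the mitochondrion. Complexes I and II take electrons from NADH and succinate, complex III passes them to cytochrome c, complex IV hands them to oxygen, and complex V uses the resulting proton gradient to make ATP. Complexes I, III, IV and V are built from subunits of both the nuclear and the mitochondrial genome, while complex II is wholly nuclear. The kidney, above all the proximal tubule and the thick ascending limb, is rich in mitochondria because sodium transport uses much ATP.

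Some mice were high or low for many members at once. In Control, mouse 4 was the highest of its group for 50 of the 81 members, and in Ang II mouse 3 was the lowest for 46. Ang II + QDG mouse 1 was the highest of its group for 54 members and mouse 3 the lowest for 48. The median member of Ang II + QDG mouse 1 stood 0.11 above its mean over all mice on the log2(FPKM + 1) scale, and that of mouse 3 stood 0.15 below it (−0.15). In addition, 11 members jumped at least 2-fold between mice of 1 group.

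**Figure D1:**
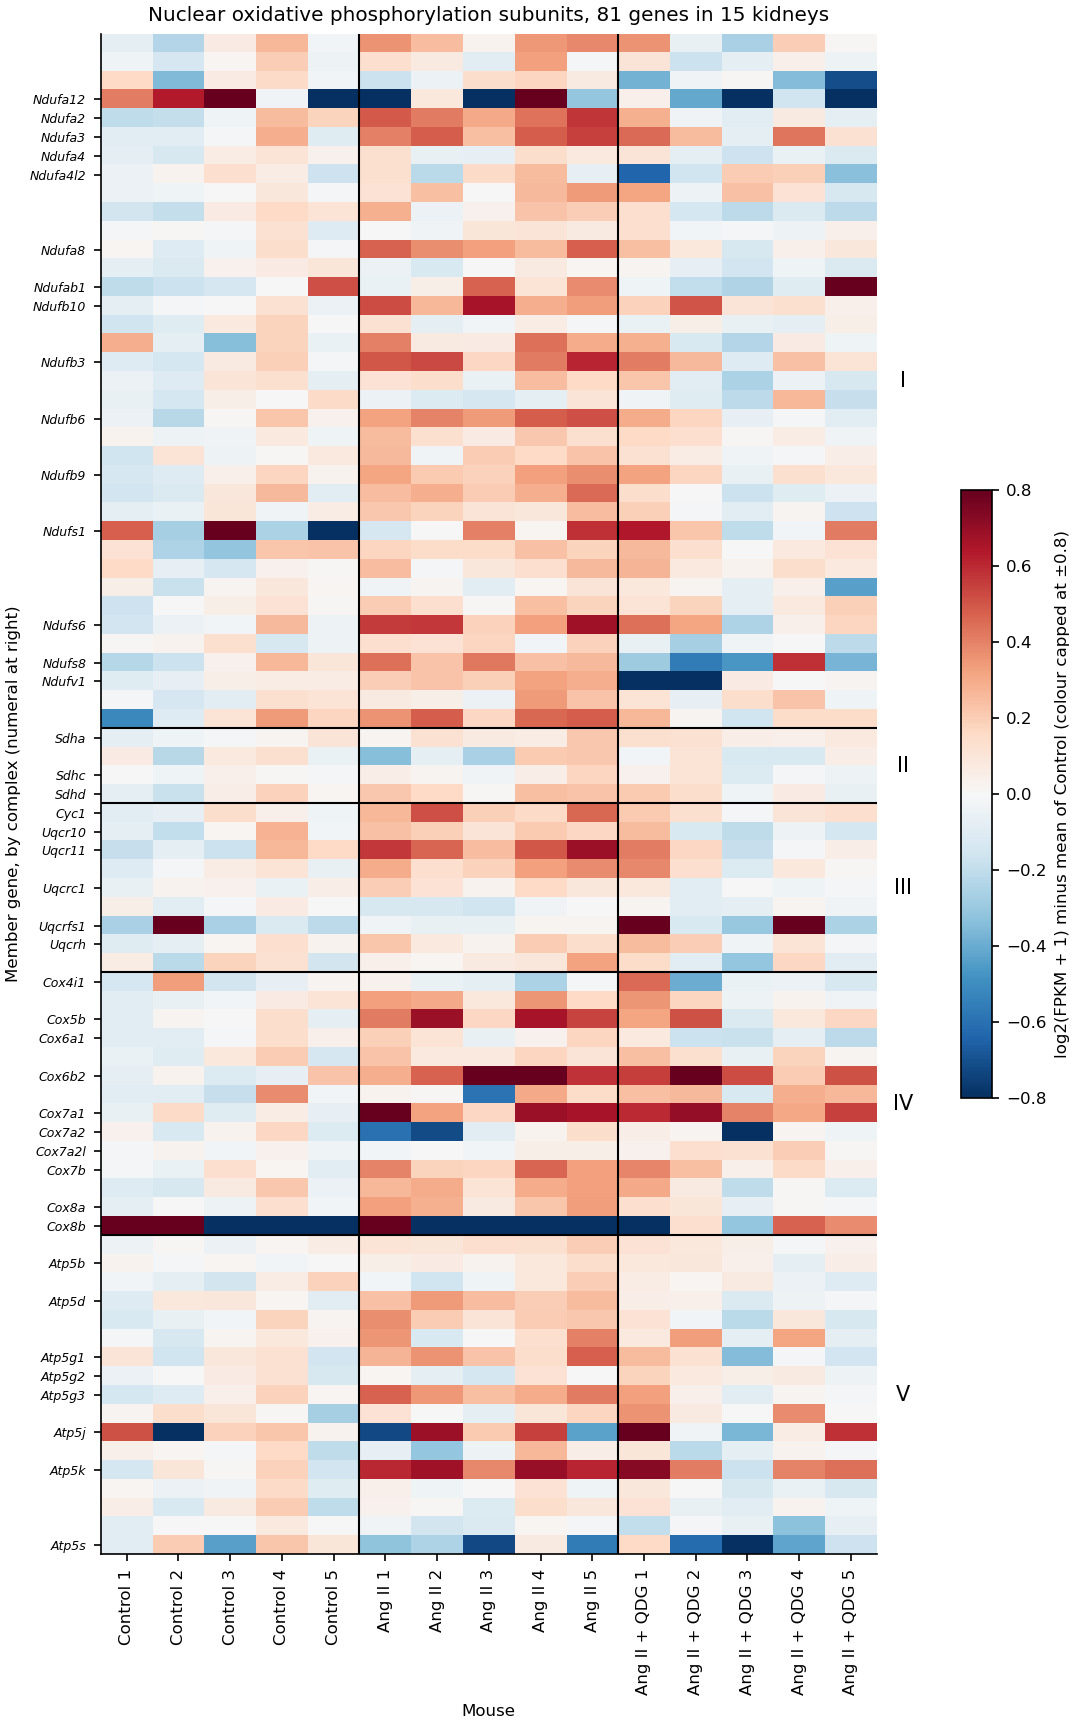
Each row is 1 of the 81 members, each column 1 of the 15 mice, and the colour is log2(FPKM + 1) minus the mean of the 5 Control mice, capped at ±0.8. Rows are labelled where the member was named by the rule, passed in a comparison or jumped at least 2-fold within a group. The Ang II columns are mostly red, Ang II + QDG mouse 1 resembles them more than mouse 3 does, and rows such as Ndufa12, Uqcrfs1 and Cox8b jump between mice of 1 group.

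The first comparison, Ang II vs. Control, asks which subunit mRNAs changed after 28 days of infusion. With limma's moderated test over all 12366 genes, 18 of the 81 members (22.2%) were upregulated at a Benjamini-Hochberg adjusted p under 0.05, against 4.95% of all genes tested. None was downregulated, against 0.995% of all genes. The 18 were Ndufa2, Ndufa3, Ndufa8, Ndufb3, Ndufb6, Ndufb9, Ndufb10 and Ndufs6 of complex I, Cyc1 and Uqcr11 of complex III, Cox5b, Cox6b2, Cox7a1, Cox7b and Cox8a of complex IV, and Atp5d, Atp5g3 and Atp5k of complex V. No subunit of complex II was called.

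The changes were small. At an unadjusted p under 0.05, 34 members were higher in Ang II and none lower, where all genes gave 17.9% higher and 4.83% lower. Under median scaling these were 20 and 2 members, and under quantile normalization 25 and 1. The shares of all genes at an unadjusted p were not counted under these scalings, here or in the other comparisons. In 18 members every Ang II mouse was above every Control mouse and in none was every one below, where the shares over all genes were 6.49% and 1.42%. At the study's own threshold, a fold change of at least 2 with an unadjusted p under 0.05, no member was called, against 1.04% of all genes. The median log2 fold change of the members was 0.14, and that of all genes tested was 0.083.

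By complex, the median log2 fold change in Ang II vs. Control was 0.17 for complex I, 0.076 for complex II (0.047 to 0.090 with 1 mouse left out), 0.14 for complex III, 0.19 for complex IV and 0.064 for complex V. The medians of complexes II and V were thus no higher than that of all genes, and they turned to −0.015 and −0.027 when each mouse was scaled to the same median gene. Of all genes 612 were higher and 123 lower, and the split became 201 and 271 under that scaling and 227 and 266 under quantile normalization. Under median scaling 3 members were still called higher (Ndufa8, Cox7a1 and Atp5k), against 1.63% of all genes. Under quantile normalization 11 were called higher, against 1.84%, and 1 lower (Uqcrc2), against 2.15%. Quantile normalization moved the members' median to 0.069 and those of complexes II and V to 0.0044 and 0.010. On protein-coding transcripts alone 12 members were called higher, against 3.01% of all genes. Ndufb10, Ndufs6, Cyc1, Uqcr11, Cox6b2 and Cox7b did not pass there. On the most abundant transcript of each gene alone, 6 were called higher (Ndufa2, Ndufa8, Ndufb3, Ndufb6, Cox8a and Atp5k), against 2.22% of all genes. For 4 called members the log2 fold change was much smaller there: from 0.32 to 0.033 for Cyc1, from 0.50 to 0.24 for Cox5b, from 0.41 to 0.20 for Ndufb10 and from 0.64 to 0.39 for Cox6b2 (adjusted p = 0.899, 0.489, 0.336 and 0.402). The count also rested on single mice. It was 3 without Control mouse 1, 5 without Ang II mouse 5, 10 without Control mouse 3 or Ang II mouse 2, and 11 without Control mouse 5. The share of all genes called higher fell to 2.19% without Control mouse 1 and to 2.22% without Ang II mouse 5. It was 2.35% without Control mouse 3, 2.56% without Ang II mouse 2 and 3.27% without Control mouse 5.

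The second comparison, Ang II + QDG vs. Ang II, asks what the granule changed on top of the infusion. It uses the same 5 Ang II mice, so its values stand beside those of the first comparison and are no second measurement of it. Here 2 members were downregulated, Ndufa8 and Atp5d, which is 2.47% of the 81 against 1.29% of all genes, and none was upregulated, against 0.526%. At an unadjusted p under 0.05, 27 members were lower and none higher, where all genes gave 10.4% lower and 6.02% higher. Every Ang II + QDG mouse was below every Ang II mouse in 6 members (Ndufa2, Ndufa8, Ndufb6, Ndufc1, Ndufv1 and Atp5d) and above in none, where the shares over all genes were 3.44% and 1.56%. On gene sums the study's threshold gave no member and 0.817% of all genes. The study, working on transcripts, listed oxidative phosphorylation among the pathways enriched in this comparison.

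In this second comparison the median log2 fold change was −0.12 for the members and −0.018 for all genes tested. It was −0.18 for complex I, −0.036 for complex II (0.040 after quantile normalization), −0.14 for complex III, −0.089 for complex IV and −0.060 for complex V. With 1 mouse left out the medians of complexes II, IV and V ranged from −0.055 to −0.0066, from −0.15 to −0.031 and from −0.089 to −0.035. Quantile normalization moved the members' median to −0.045 and those of complexes I, III, IV and V to −0.10, −0.045, −0.023 and −0.0067, with 15 members lower and 4 higher at an unadjusted p under 0.05. It also called 2 members lower, against 0.784% of all genes, but these were Cox8a and Atp5g3. Neither Ndufa8 (adjusted p = 0.0821) nor Atp5d (adjusted p = 0.0784) passed. Protein-coding transcripts alone gave 3 lower, Ndufa8, Ndufb8 and Atp5d, against 1.17% of all genes. Over all genes 65 were higher and 159 lower, quantile normalization gave 97 of each, and median scaling gave 72 and 112. Without Ang II mouse 2, 3 or 5 they were 7 and 46, 31 and 132, and 9 and 56. Without Ang II + QDG mouse 2, 3, 4 or 5 they were 9 and 48, 20 and 61, 10 and 43, and 10 and 70. The count of members rested on 1 mouse in either direction. Without Ang II + QDG mouse 1 there were 7, all lower, against 1.59% of all genes: Ndufa2, Ndufa8, Ndufb6, Ndufc1, Uqcr11, Atp5d and Atp5g3. There were 4, against 1.16% of all genes, without Control mouse 4, which enters only through the shared spread. Leaving out Control mouse 3, Ang II mouse 1, or Ang II + QDG mouse 2 or 4 left 1 (Ndufs8 without Ang II + QDG mouse 4, otherwise Atp5d), and leaving out Ang II mouse 2 or 5, or Ang II + QDG mouse 3 or 5, left 0.

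The third comparison, Ang II + QDG vs. Control, asks how far the treated mice stood from mice without Ang II. No member was called in either direction, against 0.097% of all genes higher (12 genes) and 0.0323% lower (4 genes). That split became 8 and 7 under quantile normalization, 8 and 12 under median scaling and 12 and 9 under the scaling to nuclear transcripts, and it rose to 61 and 19 with every transcript listed in any file and to 91 and 19 without Control mouse 2. At an unadjusted p under 0.05, 6 members were higher (Ndufa3, Cox6b2, Cox7a1, Cox7a2l, Cox7b and Atp5k) and 1 was lower (Atp5o), where all genes gave 10.7% higher and 3.72% lower. This split turned to 3 higher and 6 lower under median scaling and was 9 and 3 under quantile normalization. On gene sums the study's threshold gave no member and 0.728% of all genes. The members' median log2 fold change was 0.038 and that of all genes 0.059, and after median scaling the members' median was −0.040. With 1 mouse left out it ranged, on unscaled values, from 0.00045 to 0.067.

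**Figure D2:**
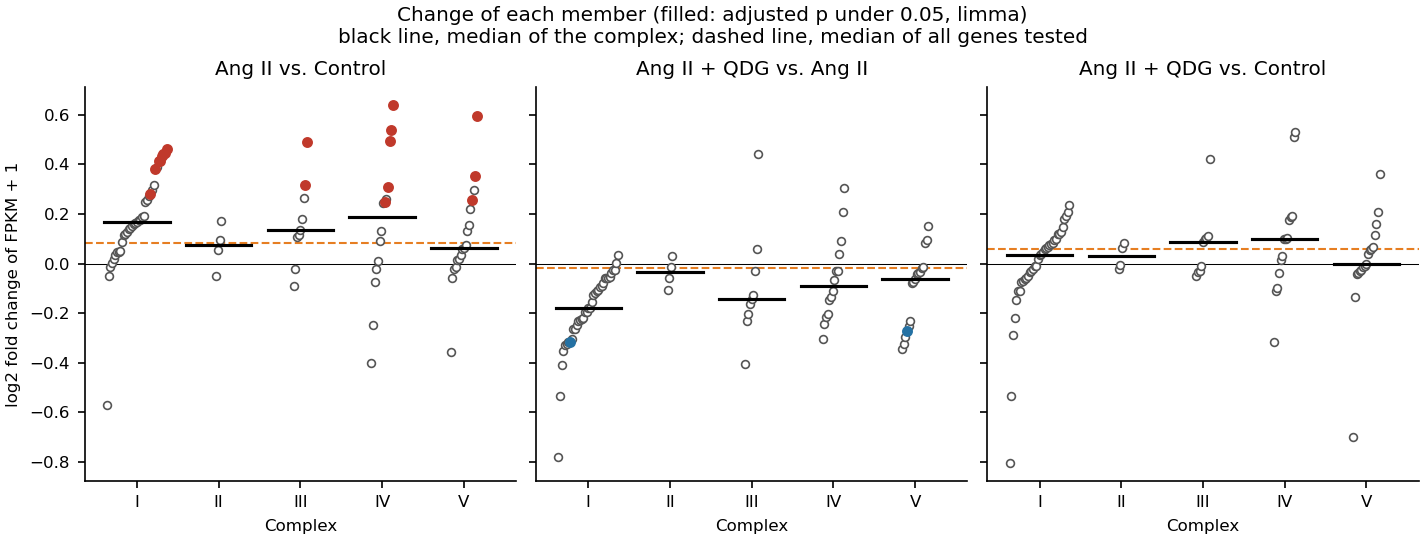
Each point is 1 member, placed by complex on the x axis and by its log2 fold change of FPKM + 1 on the y axis, with 1 panel per comparison. Filled points passed an adjusted p under 0.05 in limma: 18 above 0 in Ang II vs. Control, 2 below 0 in Ang II + QDG vs. Ang II, and none in Ang II + QDG vs. Control.

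The subunits also differed widely in FPKM, which is given per length, here the full length of a transcript. The main transcripts of the members ran from 360 to 3171 bases. Whether FPKM ranks short and long members alike was not tested, so most abundant means highest in FPKM throughout. Summed over its nuclear subunits, complex V held 6045 ± 202 FPKM in Control (SD, n = 5), complex IV 4411 ± 259, complex I 4142 ± 264, complex III 2097 ± 107 and complex II 697 ± 36.4. The sums depend on how many genes a complex has, so they rank no complex by its amount of protein. All 81 members together made up 3.55 ± 0.173% of the summed FPKM of all annotated genes in Control, 4.09 ± 0.128% in Ang II and 3.67 ± 0.258% under Ang II + QDG.

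The summed FPKM of complex I was 3945, 3836, 4232, 4510.5 and 4186 in the 5 Control mice, 4807, 4568, 4491, 4883 and 4962 in the Ang II mice and 4626, 4174, 3870.1, 4276 and 4117 in the Ang II + QDG mice. The groups of the first comparison overlapped only because Control mouse 4 was above Ang II mouse 3. The mean in Ang II was 14.5% above Control, and that in Ang II + QDG was 11.2% below Ang II (−11.2%). For complex III the means differed by 12.5% and −6.86%, for complex IV by 8.96% and −6.44%, for complex V by 9.18% and −6.17%, and for complex II by 6.88% and −3.13%. In each complex the groups overlapped in both comparisons, and no test was made of the sums, since the members were chosen with earlier results known.

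**Figure D3:**
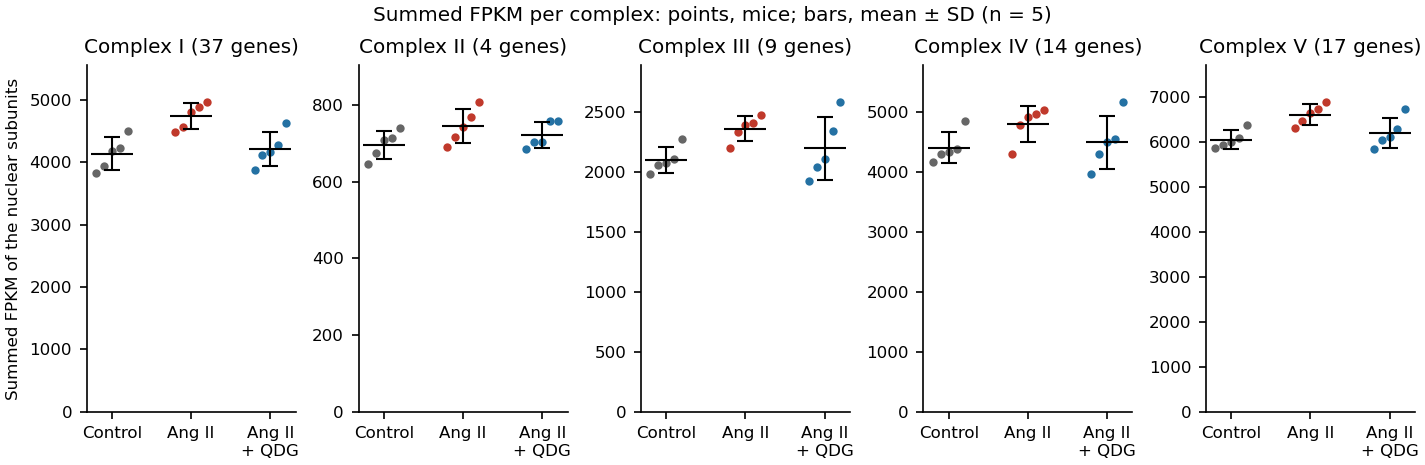
Each panel gives the summed FPKM of the nuclear subunits of 1 complex on a y axis that starts at 0, with 1 point per mouse and the mean ± SD (n = 5) of each group as bars. The mean of Ang II is the highest of the 3 groups in all 5 panels, and the points of neighbouring groups overlap in each.

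Complex I takes electrons from NADH at the tip of its peripheral arm and pumps protons through its membrane arm. Its core subunits carry the flavin and the iron-sulphur clusters, and most of the other nuclear subunits are accessory ones around that core. In Ang II vs. Control 0 of the 7 nuclear core subunits and 8 of the 30 other members named Nduf were called higher, against 4.95% of all genes. Their median log2 fold changes were 0.17 and 0.17.

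Ndufa8 (ENSMUSG00000026895, chromosome 2, 36036326 to 36049406 on the minus strand of GRCm38), an accessory subunit on the intermembrane-space side, had the smallest p of complex I in both comparisons. The Control mice had 105, 96.4, 101, 114 and 102 FPKM, the Ang II mice 144, 134, 131, 124 and 145, and the Ang II + QDG mice 123, 110.1, 94.9, 106 and 110.3. All 5 Ang II mice stood above all mice of the other groups. The log2 fold change was 0.38 for Ang II vs. Control (adjusted p = 0.00985, standard error 0.069) and −0.32 with QDG added to Ang II (adjusted p = 0.0371), and the Ang II + QDG mice differed from Control by 0.065 without a call. With 1 mouse left out, the call with QDG held in 6 of 15 fits, and it was lost under quantile normalization and median scaling (adjusted p = 0.0821 and 0.0561), with the 10 mice of the 2 groups alone and in limma without its trend.

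Ndufb6 (ENSMUSG00000071014, chromosome 4, 40270591 to 40279421 on the minus strand), an accessory subunit of the membrane arm, stood at 110.2, 97.3, 115, 133 and 117 FPKM in Control, at 142, 150.3, 145, 159.9 and 163 in Ang II and at 140.3, 128, 109, 113 and 107 under Ang II + QDG. Again the Ang II mice did not overlap either group. Its log2 fold change was 0.41 for Ang II vs. Control (adjusted p = 0.0184), while −0.35 for Ang II + QDG vs. Ang II did not pass (adjusted p = 0.0620).

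Ndufa2, an accessory subunit with a thioredoxin-like fold, showed the same order. Its FPKM was 110.2, 111, 124, 152 and 144 in Control, 179, 170.4, 157, 172 and 189.9 in Ang II and 155, 125, 119.8, 134 and 121 in Ang II + QDG, with the Ang II mice above all others. The log2 fold changes were 0.44 after Ang II (adjusted p = 0.0212) and −0.41 with QDG added (adjusted p = 0.0507), the latter just above the threshold of 0.05.

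Ndufa3, a small subunit of the membrane arm, rose from 114 ± 14.1 to 154 ± 12.4 FPKM (SD, n = 5; log2 fold change 0.43, adjusted p = 0.0302) and had 135 ± 20.3 FPKM in Ang II + QDG. Control mouse 4, at 139 FPKM, was above Ang II mouse 3, at 134 FPKM, and the call held in 7 of 15 fits with 1 mouse left out. The other called members of complex I are listed only because they passed: Ndufb3, Ndufb9, Ndufb10 and Ndufs6 had log2 fold changes of 0.44, 0.28, 0.41 and 0.46. Of these, Ndufs6, an accessory subunit that binds zinc, was the nearest to the threshold (adjusted p = 0.0488).

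Over all mice the most abundant member named Nduf was Ndufa4, which was first assigned to complex I and later found in complex IV. It stood at 322 ± 21.7 FPKM in Control, at 332 ± 22.8 in Ang II and at 309 ± 22.3 under Ang II + QDG (adjusted p = 0.732 and 0.448). Its paralog Ndufa4l2, which hypoxia is known to induce, was at 2.45 ± 0.269, 2.59 ± 0.459 and 2.18 ± 0.759 FPKM (adjusted p = 0.885 and 0.567). Neither passed in either comparison.

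Complex II, succinate dehydrogenase, is shared by the respiratory chain and the citric acid cycle, and none of its 4 subunits passed in any comparison. Sdha, the flavin-bearing catalytic subunit (ENSMUSG00000021577, chromosome 13, 74322254 to 74350280 on the minus strand), stood at 263, 271, 274, 281 and 297 FPKM in Control, at 281, 301, 291, 289 and 321 in Ang II and at 303, 301, 287, 285 and 293 under Ang II + QDG. The 3 groups overlapped. The log2 fold change was 0.097 for Ang II vs. Control (adjusted p = 0.227, standard error 0.046) and −0.012 with QDG added to Ang II (adjusted p = 0.934).

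The membrane anchor Sdhd had a log2 fold change of 0.17 for Ang II vs. Control (adjusted p = 0.184) and −0.11 with QDG added to Ang II (adjusted p = 0.507), with means of 223 ± 20.9, 250.4 ± 16.3 and 232 ± 18.4 FPKM. The other anchor, Sdhc, stayed between 83.0 and 101 FPKM in all 15 mice (adjusted p = 0.550 and 0.593).

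Complex III moves electrons from ubiquinol to cytochrome c. Cyc1 (ENSMUSG00000022551, chromosome 15, 76343523 to 76346260 on the plus strand), cytochrome c1, is the haem protein that hands the electron to cytochrome c. It stood at 178, 181, 208, 195 and 184 FPKM in Control, at 228, 269.9, 215, 209.9 and 259.8 in Ang II and at 219, 207, 187, 203 and 207 under Ang II + QDG. All Ang II mice were above all Control mice (log2 fold change 0.32, standard error 0.074, adjusted p = 0.0267), while Ang II + QDG overlapped both groups (−0.20 against Ang II, adjusted p = 0.182). On the most abundant transcript alone, Cyc1 had a log2 fold change of 0.033 in Ang II vs. Control (adjusted p = 0.899), and on its protein-coding transcripts 0.090 (adjusted p = 0.647). A transcript of Cyc1 annotated as nonsense-mediated decay held 97.7 and 70.2 FPKM in Ang II mice 2 and 5 and at most 7.45 FPKM in the other 13 mice.

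Uqcr11 (ENSMUSG00000020163, chromosome 10, 80402997 to 80406830 on the minus strand), a small accessory subunit, stood at 152, 165, 153, 208 and 193 FPKM in Control, at 256, 239, 206, 244 and 278 in Ang II and at 229.8, 194, 152, 171 and 179 under Ang II + QDG. Ang II mouse 3 lay just under Control mouse 4, and the other Ang II mice were above every mouse of the other groups. The log2 fold changes were 0.49 after Ang II (adjusted p = 0.0282) and −0.41 with QDG added (adjusted p = 0.0942).

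The most abundant member of the complex, Uqcr10, stood at 433 ± 54.4 FPKM in Control, at 489 ± 16.5 in Ang II and at 419 ± 55.5 under Ang II + QDG, and did not pass (adjusted p = 0.257 and 0.212). Uqcrc1, one of the core proteins, had 268 ± 9.86, 291 ± 12.9 and 267 ± 11.8 FPKM (adjusted p = 0.140 and 0.175). The hinge protein Uqcrh had 294 ± 18.9, 323 ± 18.3 and 317 ± 27.2 FPKM (adjusted p = 0.236 and 0.862). The 2 members that passed, Cyc1 and Uqcr11, thus did not include the most abundant one or Uqcrc1.

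Complex IV, cytochrome c oxidase, has nuclear subunits that surround a mitochondrially encoded core, and several come in isoforms of different tissues. The largest increases of any member after Ang II were found here, in Cox6b2 and Cox7a1, and in Atp5k of complex V. Cox7a1 (ENSMUSG00000074218, chromosome 7, 30184144 to 30186078 on the plus strand), the isoform of heart and skeletal muscle, stood at 12.7, 14.9, 12.3, 13.9 and 12.6 FPKM in Control, at 24.8, 16.8, 15.02, 22.0 and 21.5 in Ang II and at 20.5, 22.2, 17.8, 16.7 and 19.8 under Ang II + QDG. Every Ang II and every Ang II + QDG mouse was above every Control mouse. The log2 fold change was 0.54 for Ang II vs. Control (adjusted p = 0.0221, standard error 0.12) and −0.029 with QDG added to Ang II (adjusted p = 0.941), and against Control the Ang II + QDG mice gave 0.51 (adjusted p = 0.0964).

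Cox6b2 (ENSMUSG00000051811, chromosome 7, 4751792 to 4753094 on the minus strand), known as the testis isoform of Cox6b, was at a low level throughout. It stood at 3.15, 3.47, 3.07, 3.20 and 4.15 FPKM in Control, at 4.36, 5.08, 7.52, 7.21 and 5.56 in Ang II and at 5.43, 6.9999, 5.31, 4.05 and 5.24 under Ang II + QDG. The Ang II mice were all above the Control mice, and Ang II + QDG overlapped both. Its log2 fold changes were 0.64 for Ang II vs. Control (adjusted p = 0.0215) and −0.11 with QDG added to Ang II (adjusted p = 0.762), with 0.53 against Control (adjusted p = 0.129). Counting every transcript listed in any file, Cox6b2 was the 1 member that passed in Ang II + QDG vs. Control.

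The partners of these isoforms gave other values. Cox7a2, the isoform of liver and kidney, averaged 249.6 ± 20.7 FPKM in Control, with 164 and 151 FPKM for Ang II mice 1 and 2 and 78.7 FPKM in Ang II + QDG mouse 3, with 234 to 274 FPKM in the other mice of those groups. Cox7a2l, an assembly factor of respiratory supercomplexes related to Cox7a, had 97.3 ± 2.18, 97.9 ± 2.37 and 104 ± 5.58 FPKM in the 3 groups (adjusted p = 0.930 and 0.313). Neither was called.

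Cox6a1, the liver isoform and the most abundant Cox member, stood at 873 ± 58.5 FPKM in Control, at 930.0 ± 65.8 in Ang II and at 809 ± 67.7 under Ang II + QDG (adjusted p = 0.469 and 0.146). Cox4i1, which takes part in the control of the enzyme by ATP, had 617 ± 90.4, 583 ± 42.9 and 609 ± 138 FPKM (adjusted p = 0.789 and 0.929). These abundant subunits of complex IV did not pass, whereas Cox8a did.

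Cox8a (ENSMUSG00000035885, chromosome 19, 7215153 to 7217616 on the minus strand), the ubiquitous isoform of the smallest subunit, stood at 664, 703, 681, 770.0 and 689 FPKM in Control, at 879, 852, 738, 816 and 884 in Ang II and at 767, 749, 671, 704 and 695 under Ang II + QDG. Only Ang II mouse 3 fell inside the Control range. The log2 fold changes were 0.25 after Ang II (adjusted p = 0.0286) and −0.22 with QDG added (adjusted p = 0.0810). Its muscle isoform Cox8b was listed at 0 in 3 Control mice, 4 Ang II mice and 1 Ang II + QDG mouse, and reached 9.05 FPKM in a Control mouse and 12.9 FPKM in an Ang II mouse.

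The 2 remaining called members of complex IV, Cox5b, which binds zinc, and Cox7b, had log2 fold changes of 0.50 and 0.31 in Ang II vs. Control (adjusted p = 0.0256 and 0.0330). With QDG added they had −0.30 and −0.14 (adjusted p = 0.201 and 0.417). They were named because they passed, outside the rule for named genes.

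Complex V, ATP synthase, consists of the catalytic F1 part in the matrix and the proton channel Fo in the membrane, joined by a central and a peripheral stalk. Atp5b, its catalytic beta subunit and the most abundant of all 81 members, stood at 1376 ± 19.4 FPKM in Control, at 1448 ± 44.9 in Ang II and at 1414 ± 64.1 under Ang II + QDG. Although every Ang II mouse was above every Control mouse, the log2 fold change was 0.073 (adjusted p = 0.301). Among the 5 subunits of F1 the median log2 fold change was 0.13, and among the other 12 members it was 0.046.

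Atp5d (ENSMUSG00000003072, chromosome 10, 80138632 to 80145818 on the plus strand), the delta subunit at the foot of the central stalk, was the second member called in both comparisons. It stood at 174, 198, 199, 189 and 176 FPKM in Control, at 220.3, 237, 222, 215 and 224 in Ang II and at 194, 193, 172, 182 and 185 under Ang II + QDG. The Ang II mice stood above all 10 other mice. The log2 fold change was 0.25 for Ang II vs. Control (adjusted p = 0.0151, standard error 0.051), −0.27 with QDG added to Ang II (adjusted p = 0.0226) and −0.016 between Ang II + QDG and Control (adjusted p = 0.921). Quantile normalization ended both calls (adjusted p = 0.0717 and 0.0784), as did the most abundant transcript alone (adjusted p = 0.157 and 0.649), and median scaling ended the first (adjusted p = 0.0885). With 1 mouse left out, the call with QDG held in 10 of 15 fits.

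Atp5k (ENSMUSG00000050856, chromosome 5, 108433244 to 108434448 on the minus strand), subunit e of Fo, takes part in joining ATP synthases into dimers. It stood at 85.7, 101, 95.2, 108 and 84.9 FPKM in Control, at 144, 152, 123, 154 and 145 in Ang II and at 157, 126, 84.0, 125 and 129 under Ang II + QDG. The Ang II mice were all above the Control mice, and 4 of the 5 Ang II + QDG mice were too. Its log2 fold changes were 0.59 for Ang II vs. Control (adjusted p = 0.0214, standard error 0.13), −0.23 with QDG added to Ang II (adjusted p = 0.406) and 0.36 between Ang II + QDG and Control (adjusted p = 0.232).

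The ring that turns as protons pass is made of subunit c, and 3 genes encode it with different import signals. Atp5g3 (ENSMUSG00000018770, chromosome 2, 73908447 to 73911326 on the minus strand) stood at 543, 556, 615, 681 and 606 FPKM in Control, at 831, 759, 707, 736 and 797 in Ang II and at 751, 615, 564, 607 and 595 under Ang II + QDG. The Ang II mice were above all Control mice, while Ang II + QDG mouse 1 reached into their range. It was upregulated in Ang II (log2 fold change 0.35, adjusted p = 0.0228) and had −0.29 with QDG added to Ang II (adjusted p = 0.0785).

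Atp5g1 had 243 ± 23.9, 298 ± 26.8 and 239.9 ± 38.2 FPKM in the 3 groups, with log2 fold changes of 0.30 after Ang II (adjusted p = 0.113) and −0.32 with QDG added (adjusted p = 0.136). Atp5g2 had 206 ± 13.9, 204 ± 13.6 and 215 ± 11.9 FPKM, with −0.014 (adjusted p = 0.922) and 0.081 (adjusted p = 0.548). Of the 3 genes for subunit c only Atp5g3 passed on unscaled values, under quantile normalization and under the scaling to nuclear transcripts, and none passed under median scaling (adjusted p = 0.0937 for Atp5g3). Whether the 3 genes differed in their change was not tested.

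**Figure D4:**
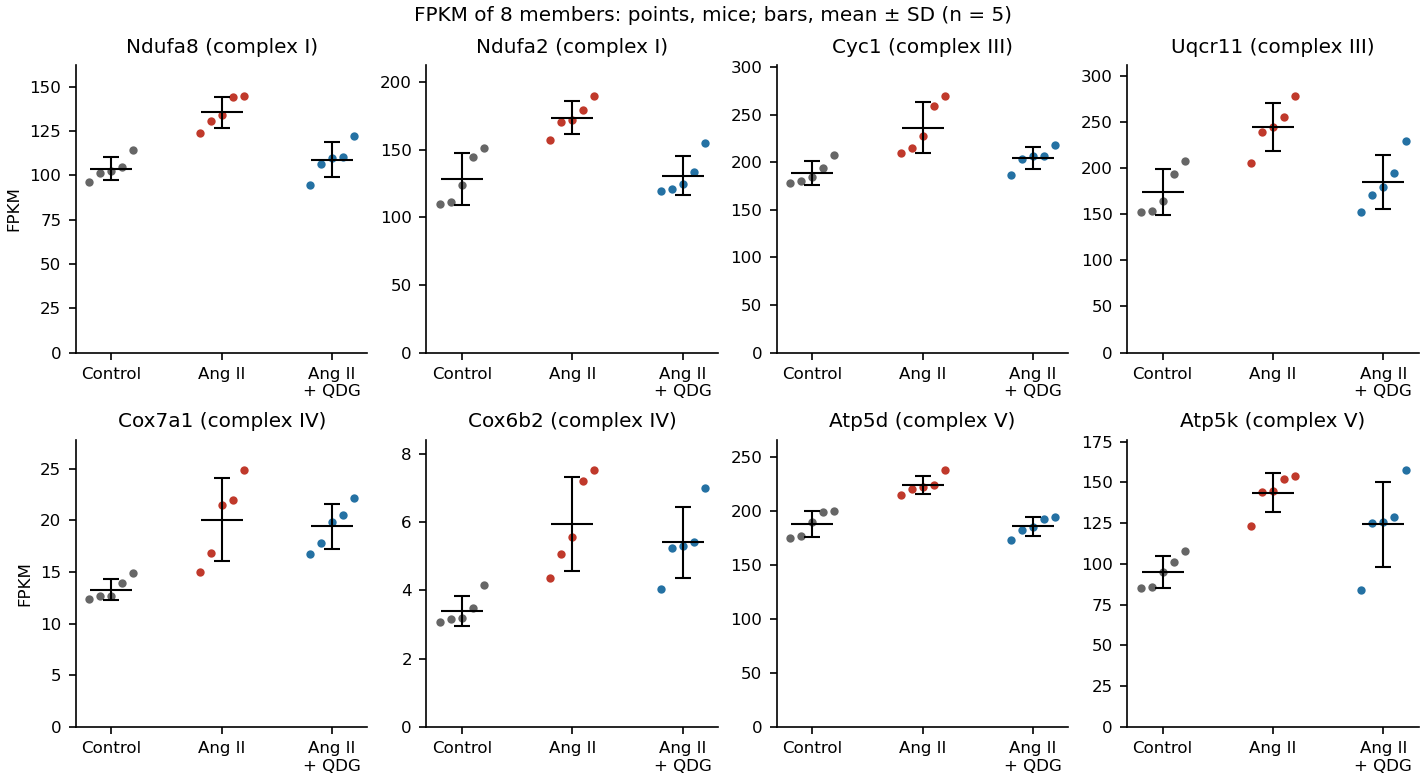
Each panel gives the FPKM of 1 member on a y axis that starts at 0, with 1 point per mouse and the mean ± SD (n = 5) of each group as bars. Ang II points lie above all Control points in the 7 panels other than Uqcr11, and Ang II + QDG points lie below all Ang II points in Ndufa8, Ndufa2 and Atp5d.

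The promoters of 3 upregulated members are shown because they hold motifs of factors known to drive respiratory genes. RefSeq windows of 300 bases on GRCm38.p6, from 250 bases before to 50 bases after the start site, were found for 65 of the 81 members. The NRF1 motif GCGCANGCG, on either strand, was in 20 of the 65 (30.8%) and in 6.25% of all 32851 windows. The ETS motif CCGGAAG, which GABP binds, was in 16 (24.6%) and in 8.86% of all windows. YY1's AAGATGGCG was in 7 (10.8%) against 1.40%, and the ERR motif TNAAGGTCA in 3 (4.62%) against 1.28%. Among the 15 called members with a window, 6 held the NRF1 motif, 4 the ETS motif, 1 the YY1 motif and 1 the ERR motif.

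The windows below read 5′ to 3′ on the gene's strand, and capitals mark the motif. Ndufa8 (chr2:36049289-36049588, minus strand) holds the NRF1 motif at 2 places, Ndufb6 (chr4:40279372-40279671, minus strand) holds the ETS motif, and Atp5k (chr5:108434350-108434649, minus strand) holds an NRF1 palindrome, matched on both strands, and downstream of it the ETS motif.
Ndufa8: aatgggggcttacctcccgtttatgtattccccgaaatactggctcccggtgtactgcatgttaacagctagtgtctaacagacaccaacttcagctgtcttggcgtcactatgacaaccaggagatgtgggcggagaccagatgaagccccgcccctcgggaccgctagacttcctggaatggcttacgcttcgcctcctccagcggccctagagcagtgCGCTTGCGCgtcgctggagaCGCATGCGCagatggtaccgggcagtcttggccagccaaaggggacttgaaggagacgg
Ndufb6: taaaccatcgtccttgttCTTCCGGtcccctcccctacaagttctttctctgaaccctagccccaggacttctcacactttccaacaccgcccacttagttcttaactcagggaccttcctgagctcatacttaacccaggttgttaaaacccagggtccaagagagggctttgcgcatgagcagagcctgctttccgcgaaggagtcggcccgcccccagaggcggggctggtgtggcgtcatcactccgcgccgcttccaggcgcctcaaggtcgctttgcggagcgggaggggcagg
Atp5k: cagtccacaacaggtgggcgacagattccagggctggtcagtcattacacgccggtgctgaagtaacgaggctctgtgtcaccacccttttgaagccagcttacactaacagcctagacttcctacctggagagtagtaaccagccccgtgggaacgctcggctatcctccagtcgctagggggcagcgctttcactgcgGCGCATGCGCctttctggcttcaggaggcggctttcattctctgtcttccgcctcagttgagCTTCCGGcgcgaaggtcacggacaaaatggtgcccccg
A match of letters is no evidence that a factor bound there in these kidneys, and no binding was measured.

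The members were mostly short. The main transcript, the most abundant one over all mice, had a median length of 745 bases over the 81 members and 2760.5 bases over 11020 other protein-coding genes tested, and 64.2% of members but 8.37% of the others were under 1000 bases. For the 18 upregulated members the median was 681.5 bases, with 15 under 1000 bases, and for the other 63 it was 908 bases, with 37 under 1000. In Ang II vs. Control the median log2 fold change was 0.25 for the 27 members under 600 bases, 0.16 for the 25 from 600 to 1000 bases, 0.11 for the 24 from 1000 to 2000 bases and 0.097 for the 5 longer ones.

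Other protein-coding genes gave 0.14, 0.11, 0.081 and 0.080 in the same ranges, so length moved with the change outside these complexes too. With QDG added the members' medians were −0.22, −0.15, −0.067 and −0.060, and those of the other genes −0.088, −0.051, −0.030 and −0.015. Among genes under 600 bases, 8 of 27 members and 11 of 196 others were upregulated in Ang II. The part of transcript length in the members' changes was not tested.

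**Figure D5:**
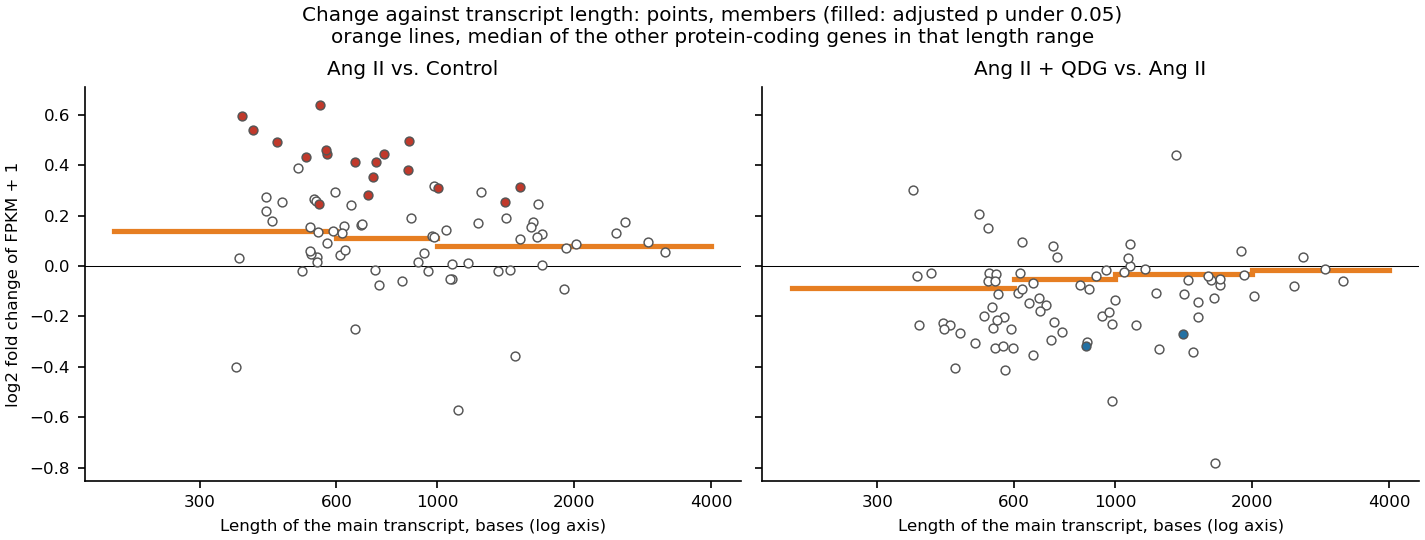
Each point is 1 member, placed by the length of its main transcript on a log axis and by its log2 fold change of FPKM + 1, with filled points at an adjusted p under 0.05. The orange lines give the medians of the other protein-coding genes, from 0.14 under 600 bases to 0.080 in the longest range drawn, after Ang II.

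Most mitochondrially encoded subunits of the same complexes had lower FPKM in Ang II. Of 9 tested, all had a negative log2 fold change against Control, with a median of −0.37, and 5 were downregulated at an adjusted p under 0.05: mt-Nd2, mt-Cytb, mt-Co1, mt-Co2 and mt-Co3. Median scaling gave 6 downregulated, but quantile normalization, which gives the most abundant genes of all mice the same values, gave 0, with 1 of the 9 above 0. mt-Cytb, of complex III, stood at 18427 ± 1104 FPKM in Control, at 13911 ± 171 in Ang II and at 18088 ± 1450.4 under Ang II + QDG (log2 fold change −0.40, adjusted p = 0.00497, and 0.38 with QDG, adjusted p = 0.0132). In Ang II + QDG vs. Ang II, 2 of the 9 were upregulated, mt-Cytb and mt-Co2, while median scaling left mt-Cytb alone and quantile normalization gave 0, with a median of 0. In sums, the 3 mitochondrial genes of complex IV were 22.9% lower in Ang II than in Control (−22.9%) and the 14 nuclear ones 8.96% higher. For complex I the 6 listed mitochondrial genes, 1 of them below the filter, were 20.4% lower (−20.4%) and the 37 nuclear ones 14.5% higher. The 1 listed mitochondrial gene of complex V, mt-Atp8, was below the filter and went the other way in its mean, 615 FPKM in Control and 898 in Ang II. It had 3076 FPKM in Control mouse 1, 2184 and 2305 in Ang II mice 2 and 5, and at most 0.213 in the other 12 mice.

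FPKM is a share of all fragments, so every value here is relative to these abundant transcripts. When each mouse was scaled to the same FPKM of transcripts outside the mitochondrial genome, 17 members were still upregulated in Ang II (all but Ndufs6), against 3.92% of all genes. The median log2 fold change was then 0.13 for the members and 0.069 for all genes. In Ang II + QDG vs. Ang II that scaling gave 4 downregulated members, Ndufa2, Ndufa8, Ndufb6 and Atp5d, against 1.30% of all genes.

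Other genes of mitochondrial energy metabolism were counted from lists written by hand. Among 50 assembly factors of the complexes, 8 were upregulated (16%) and 1 downregulated (2%) in Ang II vs. Control, against 4.95% and 0.995% of all genes, with a median log2 fold change of 0.17. With QDG added 4 were downregulated (8%, against 1.29% of all genes) and none upregulated, with a median of −0.15. Among the 8 the largest increase was that of Ndufaf8, an assembly factor of complex I, at 0.57 (adjusted p = 0.00497), with −0.40 after QDG was added (adjusted p = 0.0295). Pet100 and Coa3, which help to assemble complex IV, had 0.53 and 0.28 (adjusted p = 0.0124 and 0.0175). The highest value in the list, 0.87 for Cox11, did not pass (adjusted p = 0.244).

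Of 15 electron carriers and ubiquinone synthesis genes 2 (13.3%) were upregulated in Ang II, against the same 4.95% of all genes. Cycs, cytochrome c itself, averaged 113 FPKM in Control, 149.6 in Ang II and 105 under Ang II + QDG (log2 fold change 0.41, adjusted p = 0.0144, and −0.51, adjusted p = 0.0135). Coq7, which hydroxylates the ubiquinone precursor, had 0.25 (adjusted p = 0.0155). Cytochrome c was thus called in both comparisons, and Coq7 only in the first (−0.071 with QDG, adjusted p = 0.523).

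Of 17 genes of the citric acid cycle and of pyruvate dehydrogenase, which feeds it, 2 (11.8%) were upregulated, with a median of 0.014 that was below that of all genes: Idh3a, a subunit of the NAD-linked isocitrate dehydrogenase, at 0.26 (adjusted p = 0.0154) and −0.29 with QDG (adjusted p = 0.0222), and Dlat of pyruvate dehydrogenase at 0.22 (adjusted p = 0.0216). Of 20 other mitochondrial carriers, chaperones and membrane proteins, 18 had a positive log2 fold change, with a median of 0.14, and 2 (10%) were upregulated, the adenine nucleotide carrier Slc25a4 at 0.31 (adjusted p = 0.0115) and the phosphate carrier Slc25a3 at 0.17 (adjusted p = 0.0187). The chaperonin Hspe1 had 0.30 (adjusted p = 0.113) and was downregulated with QDG (−0.50, adjusted p = 0.0330). The 17 genes of the cycle and pyruvate dehydrogenase thus showed a smaller median in Ang II vs. Control than complexes I, III and IV. With QDG added their median was −0.095, against −0.14 for complex III and −0.089 for complex IV, and that of the 20 carriers, chaperones and membrane proteins was −0.11.

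Among 14 nuclear regulators of mitochondrial genes, Esrra, the oestrogen-related receptor alpha, was upregulated in Ang II (57.8 to 82.3 FPKM, log2 fold change 0.50, adjusted p = 0.00631) and had −0.29 with QDG (adjusted p = 0.0709). Tfb2m, a factor for transcription of the mitochondrial genome, was downregulated in Ang II (−0.23, adjusted p = 0.0219) and had 0.19 with QDG (adjusted p = 0.0841). The other 12 were not called in any comparison.

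The tissue label was checked against markers of kidney cells. All 12 proximal tubule markers were listed, and their summed FPKM ranged from 7712 to 18495 in Control, 7574 to 9146 in Ang II and 9833 to 13984 in Ang II + QDG, with none called. Of 3 podocyte markers, Nphs1, Wt1 and Podxl, all had a positive log2 fold change in Ang II vs. Control and Podxl, a surface protein, was upregulated (0.35, adjusted p = 0.0277). Their summed FPKM did not overlap between Control, at 54.1 to 65.6, and Ang II, at 67.4 to 82.4, and was 72.2 to 88.8 in Ang II + QDG. Other podocyte markers are not reported here. The erythroid sum ranged from 545 to 1362, 1115 to 1943 and 1557 to 2818 FPKM, with 1 of 5 genes, Hba-a1, called in Ang II + QDG vs. Control. Of 4 intercalated cell markers 1, Slc26a4, was upregulated in Ang II (sums of 62.2 to 67.9 and 70.4 to 96.7 FPKM in Control and Ang II).

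Beside the muscle isoform Cox7a1, none of 6 skeletal muscle markers was listed in any file. The 4 smooth muscle markers summed to 38.5 to 50.7 FPKM in Control, 43.0 to 97.8 in Ang II and 52.9 to 61.2 in Ang II + QDG, with Tagln upregulated in Ang II (log2 fold change 0.59, adjusted p = 0.0326). The adipose markers summed to 26.7 to 149, 25.1 to 249.6 and 40.1 to 86.0 FPKM, with none of 4 tested called. None of the markers of thick ascending limb (6 tested), distal convoluted tubule (4), collecting duct (6), endothelium (5) and leukocytes (4) was called in any comparison. With QDG added to Ang II, 5 of the 6 thick ascending limb markers had a positive log2 fold change (median 0.27), 4 of them at an unadjusted p under 0.05, against 6.02% of all genes, and their summed FPKM was 1009 to 1525 in Ang II and 1403 to 1864 in Ang II + QDG. The median of the 4 distal convoluted tubule markers was 0.25 in Ang II vs. Control (3 positive, 2 at an unadjusted p under 0.05) and −0.29 with QDG added (3 negative, 1 at an unadjusted p under 0.05). The 4 leukocyte markers were all negative in Ang II vs. Control (median −0.37, none at an unadjusted p under 0.05) and all positive with QDG added (median 0.36, 1 at an unadjusted p under 0.05). The part of cell composition in the members' changes was not tested.

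The 11 members named here after their values were seen jumped at least 2-fold between mice of the same group: Ndufa12, Ndufa4l2, Ndufab1, Ndufs1, Ndufs8, Ndufv1, Uqcrfs1, Cox7a2, Cox8b, Atp5j and Atp5s. Ndufv1, the subunit that binds NADH, had 106 to 116 FPKM in Ang II and 32.5, 37.4, 97.0, 92.8 and 93.8 in Ang II + QDG. The low values of Ang II + QDG mice 1 and 2 made its log2 fold change the largest of complex I in that comparison, −0.78, without a call (adjusted p = 0.153, standard error 0.27). Uqcrfs1, the Rieske iron-sulphur protein of complex III, had 88.9 to 112 FPKM in 12 mice and 197, 268 and 315 in Control mouse 2 and Ang II + QDG mice 1 and 4.

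Ndufa12, an accessory subunit of complex I, ranged from 4.61 to 64.5 FPKM in Control alone. Of the 285 member transcripts, 16, in 13 members, had at least 20 FPKM in 1 mouse and under 1 FPKM in another of the same group. Without the 11 members the median log2 fold change was 0.15 after Ang II and −0.12 with QDG added, an alternative chosen after seeing the data.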

How the data were processed

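For each mouse the authors deposited a file of FPKM values of Ensembl and assembled transcripts, made per the labels with mm10, 1 file for 1 mouse. No source used here names the unit. It was read from the values: times transcript length (GENCODE release 21) they were whole multiples of 1 constant per mouse, within 0.02 reads, for 98.3% to 98.5% of values under 200 reads, which implies 68927600 to 81322000 fragments per mouse. The labels also name limma and rRNA depletion, and the study's methods add poly(A) isolation. The aligner is not given in the sources used here.

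FPKM of the 28863 annotated transcripts in all 15 files was summed per gene, and the 12366 genes that reached 1 FPKM in 5 mice or more were tested on log2(FPKM + 1) with limma 3.58.1 (R 4.3.3; 1 model of 15 mice, 12 residual degrees of freedom, trend, Benjamini-Hochberg adjustment), which was first tested on simulated data. The pseudocount makes changes of low genes smaller. The 11141 assembled transcripts were left out. Replicates are separate mice, numbered in the order of their records. A median member had 11004 fragments per mouse, and 6 (Atp5s, Cox6b2, Cox7a1, Cox8b, Ndufa11 and Ndufa4l2) had under 1000. Beside the members, 7 processed pseudogenes of them are listed (among them Ndufb4c, at 61.4 FPKM, and Ndufab1-ps, at 54.6 FPKM) with which reads could be shared, so Ndufb4, Ndufab1, Cox6c, Ndufs6, Atp5k and Atp5l are uncertain to that extent.

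Members, lists and motifs were chosen with earlier results of these data known. Named in each complex were the most abundant member, the members with the smallest p (2, 2 and 1 in the 3 comparisons) and 6 isoform sets, and from each other list up to 3 called genes. Alternatives were pseudocounts of 0.1 and 0.01, no filter, 3 scalings, other transcript sets, 10 mice per fit, no trend and leaving out each mouse. Some results on single genes are not reported here.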

Additional observations from a re-analysis of the deposited data

Results flagged for a closer look

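Of 99 groups of 5 mice examined, for the 28 named members and the sums of the 5 complexes, 4 held a mouse far from the other 4 of its group by Dixon's test at the 95% level, where chance flags about 1 in 20. Atp5g3 had 751 FPKM in Ang II + QDG mouse 1, against 564 to 615 FPKM in the other mice of that group. Cox7a2 had 78.7 FPKM in Ang II + QDG mouse 3, against 243 to 258 FPKM in the others. Ndufa3 had 139 FPKM in Control mouse 4, against 106 to 113 FPKM. Cox8b had 12.9 FPKM in Ang II mouse 1 and was listed at 0 in the other 4 Ang II mice. Ang II + QDG mouse 1 and Control mouse 4 were also the mice that were highest of their groups for most members.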

How the results depend on the processing

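Beside the main 18 members called in Ang II vs. Control, median scaling gave 3, protein-coding transcripts alone 12 and the most abundant transcript alone 6. Leaving out 1 mouse gave 3 to 21. For the 2 called in Ang II + QDG vs. Ang II, the scaling to nuclear transcripts gave 4, protein-coding transcripts alone 3 and quantile normalization 2 other members (Cox8a and Atp5g3), and median scaling, the most abundant transcript, the 10 mice of the 2 groups and limma without its trend gave 1 each, while leaving out 1 mouse gave 0 to 7. In Ang II + QDG vs. Control, 1 member was called when transcripts missing from some files were counted as 0. Median scaling moved the median log2 fold change in Ang II vs. Control to 0.053 for the members, 0.078 for complex I, −0.015 for complex II, 0.045 for complex III, 0.097 for complex IV and −0.027 for complex V, and in Ang II + QDG vs. Control to −0.040 for the members, −0.045 for complex I, −0.049 for complex II, 0.0082 for complex III, 0.020 for complex IV and −0.079 for complex V. Quantile normalization moved that of complex II in Ang II + QDG vs. Ang II to 0.040 and that of all members there from −0.12 to −0.045. This scaling and median scaling centre the changes by construction; for the other settings the cause was not tested. The other medians, and the percent changes of the summed FPKM per complex under the scaling to nuclear transcripts, other transcript sets and without the 11 members that jumped, moved by less than the spread between mice. Counting Ndufa4 in complex IV gave that complex 0.13 and −0.11. Of 132 refits of the 12 named members called in Ang II vs. Control with all mice, 106 kept the call, 26 lost it and 0 changed direction. With 1 mouse left out, 146 of 180 kept it. The other 6 called members kept it in 43 of 66 and 53 of 90. For the 2 called in Ang II + QDG vs. Ang II, 16 of 22 refits with all mice and 16 of 30 with 1 mouse left out kept the call, and 4 and 8 refits called another named member. No paired analysis was possible because the labels give the mice no shared number. Depth gave a median of 11004 fragments per member and mouse, and a member that did not pass may still have changed.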
